A study of Mus musculus with 12 samples.

Results

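Immediate early genes are the first genes that neurons transcribe when they fire. The name is used here for the whole list below, and how early each gene is induced was not tested. The 35 described here were taken from the count table by gene symbol: Fos, Fosb, Fosl2, Jun, Junb, Maff and Atf3 of the AP-1 kind, Egr1, Egr2, Egr3 and Egr4, Nr4a1, Nr4a2 and Nr4a3, the transcription factor genes Npas4, Klf4 and Klf10, the effector genes Arc, Homer1, Nptx2, Inhba, Vgf and Scg2, the signalling genes Dusp1, Dusp4, Dusp5, Dusp6, Sik1, Pim1 and Trib1, and Ier2, Ier5, Btg2, Gadd45b and Gadd45g. All 35 were found, each by 1 row among 53379 genes, had counts in all 12 libraries and passed the filter on low counts, as did 19252 genes in all. The rule names symbols and uses no measured value, and it was set with earlier results of these data known.

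The study sequenced RNA of cortex from wild-type C57BL/6J mice, 6 months after repeated closed-head impacts below the severity of mild injury (rlmTBI) or after sham treatment, and its title asks how a fish oil fatty acid bears on brain vessels and repair. Diet and injury were crossed into 4 groups of 3 libraries each. Fish oil injured mice had rlmTBI and a high-fat diet with added fish oil, given in cycles. Fish oil sham mice had that diet and the sham treatment. Purified injured mice had rlmTBI and a purified control diet without breaks. Purified sham mice had the purified diet and the sham treatment. Fat content, fish oil and the feeding schedule all set the diets apart and cannot be told apart here. No age is given in the sources used here. Libraries are named by group and by the replicate number in their label, which is 2, 3 or 4.

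An action potential train lets calcium into a neuron through NMDA receptors and L-type calcium channels. Calcium-dependent kinases and the MAP kinase pathway then activate factors already bound at promoters, CREB at cAMP response elements (CRE) and SRF with its partners at CArG boxes, and transcription starts within minutes without new protein. The first transcripts encode transcription factors, which drive later genes, synaptic proteins such as Arc and Homer1a, and phosphatases that shut the MAP kinase signal off again. In cortex their level at any moment follows recent experience, and most of these transcripts decay fast.

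The promoters of some of the 35 genes hold these elements. A RefSeq promoter, from 250 bases before the start to 50 after it on GRCm38.p6, was at hand for 25 of the 35 genes, in 33 windows, since some genes have several starts. The 160 bases just before the start are printed 5′ to 3′ on the gene's own strand. Capitals mark the CRE core site TGACG on either strand, the full CRE TGACGTCA, the CArG box and the TATA box motif TATAAA. Fos (chr12:85473730-85473889, plus strand) and Homer1 (chr13:93303597-93303756, plus strand, the first of its 2 starts) show core sites, Egr2 (chr10:67537709-67537868, plus strand, 1 of its 5 starts) a CArG box between core sites, and Scg2 (chr1:79440027-79440186, minus strand) the full element. Egr4 (chr6:85513590-85513749, minus strand) holds a core site, and Dusp6 (chr10:99263071-99263230, plus strand) is shown as a promoter without any of the motifs searched.
Fos: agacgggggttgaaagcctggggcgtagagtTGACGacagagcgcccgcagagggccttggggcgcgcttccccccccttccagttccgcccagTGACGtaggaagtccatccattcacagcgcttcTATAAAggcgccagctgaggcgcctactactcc
Egr2: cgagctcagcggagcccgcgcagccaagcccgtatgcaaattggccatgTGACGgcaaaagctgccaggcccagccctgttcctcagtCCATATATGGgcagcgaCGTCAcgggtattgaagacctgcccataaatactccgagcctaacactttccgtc
Egr4: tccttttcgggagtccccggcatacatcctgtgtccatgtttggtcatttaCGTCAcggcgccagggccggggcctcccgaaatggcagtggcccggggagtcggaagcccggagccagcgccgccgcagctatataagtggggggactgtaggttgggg
Homer1: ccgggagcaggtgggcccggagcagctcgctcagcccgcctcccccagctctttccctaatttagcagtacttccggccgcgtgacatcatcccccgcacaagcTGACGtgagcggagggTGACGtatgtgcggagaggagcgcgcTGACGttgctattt
Scg2: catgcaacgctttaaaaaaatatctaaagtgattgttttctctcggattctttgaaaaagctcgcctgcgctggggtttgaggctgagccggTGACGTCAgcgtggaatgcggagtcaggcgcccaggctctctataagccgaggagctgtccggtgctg
Dusp6: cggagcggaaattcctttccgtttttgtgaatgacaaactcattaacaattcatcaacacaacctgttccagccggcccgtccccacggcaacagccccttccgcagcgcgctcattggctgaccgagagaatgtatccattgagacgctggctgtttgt

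Read on both strands over the 300 bases of each window, the full CRE lay in 4 of the 25 genes with a promoter (Btg2, Dusp1, Maff and Scg2), or 16%, against 2.03% of the 27018 genes in the table. The core site TGACG lay in 17 of 25, or 68%, against 23.0% of all genes. This core site was added after the full element had been counted, and each full CRE holds it on both strands. In Fos the core sites began at positions -129 and -66 from the start base, counted as 0, and TATAAA at -33. In Homer1 core sites began at -56, -40 and -14. A CArG box lay in 2 of 25 promoters, or 8%, against 1.81% of all genes. The genes were Egr2 and Dusp5, and Dusp5 held the box at -82 and again at -72. TATAAA lay in 6 of 25, or 24%, against 15.7%, and the EGR site GCGTGGGCG in 1, Maff, or 4%, against 0.707%. The AP-1 site TGANTCA lay in 0 of the 25 windows and in 8.98% of all genes. These are letter matches in a short window, not bound sites.

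Totals per library ran from 46362158 to 70754854 counts, and each of the 35 genes had at least 22 counts in every library. Levels are given in CPM, counts scaled to a common library total with TMM factors. Slc17a7, a marker of cortical excitatory neurons, was present in all 12 libraries, at 492.2 to 1083 CPM. Transcripts of other tissue were uneven. Purified injured replicate 3 carried olfactory bulb markers at a sum of 656 CPM, against at most 26.9 CPM in the other 11 libraries, and 2 of these 4 markers were at 0 in at least 1 library. Fish oil sham replicate 2 carried striatal markers at a sum of 1625 CPM, and purified sham replicate 4 at 695 CPM, against 111 to 436 CPM in the rest. Choroid plexus markers summed to 214 to 2584 CPM in fish oil injured libraries, 31.3 to 61.6 CPM in fish oil sham, 14.6 to 35.1 CPM in purified injured and 24.5 to 465 CPM in purified sham libraries. The libraries with the olfactory bulb sum of 656 CPM and the striatal sum of 1625 CPM are named libraries of other regions below. The main counts of each comparison are given with and without them. Labels do not tie each library to its own animal, so a p-value here reflects only how these libraries vary, which may be technical. In bulk tissue fewer cells of a type and less RNA per cell cannot be told apart.

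Taken per kilobase of exon, the scale on which genes can be compared, mean levels over the 12 libraries spanned from 0.382 CPM per kilobase for Maff, a small MAF protein that pairs with AP-1 factors, to 114 CPM per kilobase for Scg2, the precursor of secretoneurin. Egr1 came next below Scg2 at 75.3 CPM per kilobase, then Arc at 64.4, Egr3 at 35.1 and Nr4a1 at 34.1. Fos stood at 22.8 CPM per kilobase and Npas4, found almost only in neurons, at 9.64. Egr4, Pim1 and Gadd45g stood near the bottom with Maff, at 1.04, 1.00 and 0.965 CPM per kilobase.

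Libraries of the same group differed more in these genes than in most others. The SD of log2 CPM between libraries of a group had a median of 0.61 over the 35 genes and of 0.30 over the 19252 genes tested, and 32 of the 35 stood above 0.30. Among the 14575 tested genes with a mean of at least 1 CPM the median was 0.22, and all 35 stood above it. The largest spread was that of Atf3, a stress-induced bZIP factor, at 1.68, and the smallest that of Nptx2, a secreted pentraxin that clusters AMPA receptors, at 0.26. Fos had an SD of 0.80, Npas4 of 0.83, Egr2 of 1.06 and Homer1 of 0.32. Over all 12 libraries Fos differed 9.97-fold between its lowest and highest library and Npas4 10.02-fold, while Nptx2 differed 1.90-fold.

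**Figure D1:**
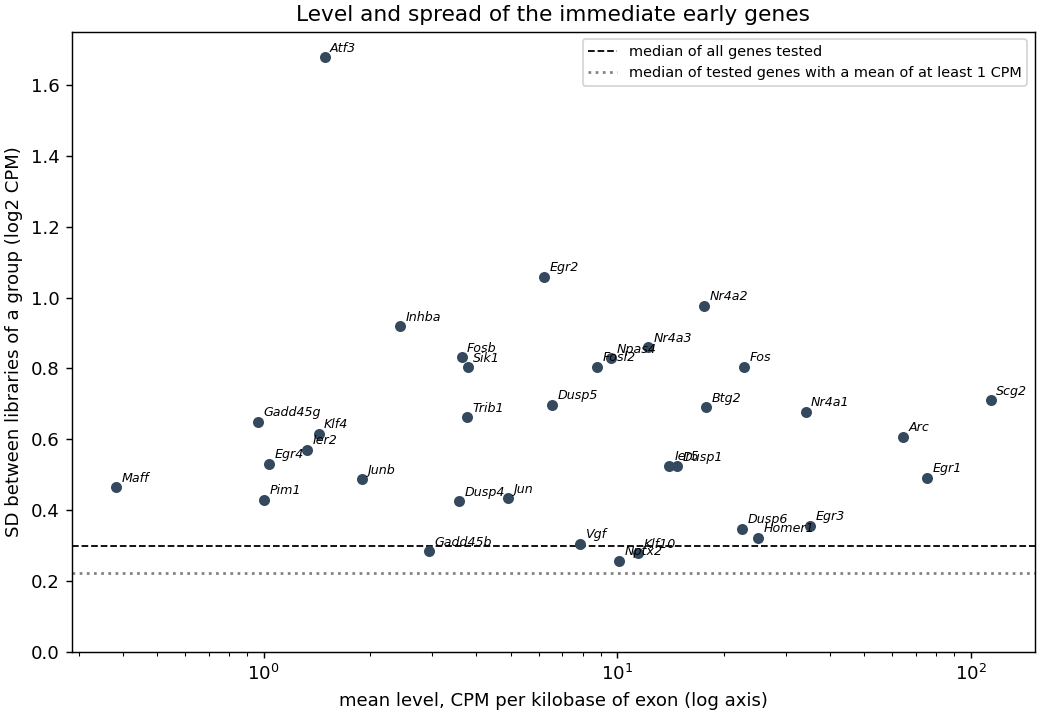
Mean level of each of the 35 genes over 12 libraries in CPM per kilobase of exon (log axis) against the SD of log2 CPM between libraries of a group. The dashed line is the median SD of all 19252 genes tested, 0.30, and the dotted line that of genes with a mean of at least 1 CPM, 0.22; most points lie above both lines, Atf3 at 1.68 farthest.

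Libraries of a group differed in the overall level of the genes. A score was taken for each library as the mean, over the 35 genes, of log2 CPM minus the gene's own mean. In fish oil injured libraries the score was 0.55, 0.077 and -0.72 in replicates 2, 3 and 4. Replicate 2 was the highest of these 3 in 26 of the 35 genes and replicate 4 the lowest in 27. In fish oil sham libraries the score was -0.52, -0.015 and -0.37. Replicate 3 was the highest of them in 24 genes. Purified injured libraries scored -0.29, 0.40 and -0.18, and replicate 3 was the highest of them in 24 genes. Purified sham libraries scored 0.54, 0.31 and 0.22, so all 3 lay above the mean. The group scores were -0.030 ± 0.64 in fish oil injured, -0.30 ± 0.26 in fish oil sham, -0.023 ± 0.37 in purified injured and 0.36 ± 0.17 in purified sham libraries (SD, n = 3 each). Fish oil injured replicate 2 lay above all purified sham scores and purified injured replicate 3 within them, so those groups overlap. The SD of the fish oil injured group was the widest of the 4.

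**Figure D2:**
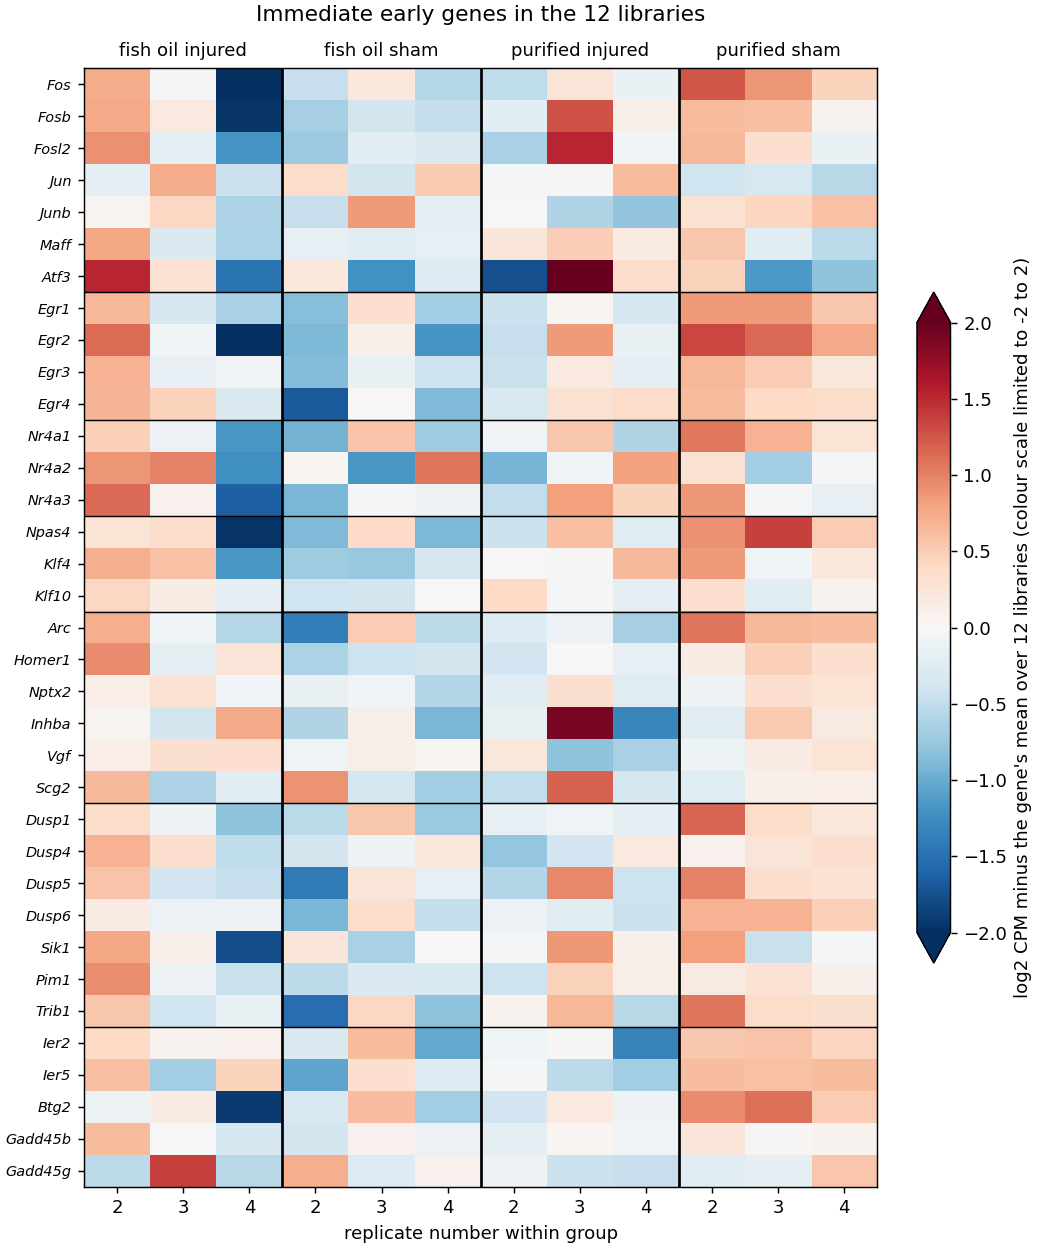
Log2 CPM of each of the 35 genes minus the gene's mean over 12 libraries, with genes in rows by role and libraries in columns by group (colour limited to -2 to 2). Purified sham columns are mostly above the mean, fish oil sham columns mostly below it, and fish oil injured runs from the high replicate 2 to the low replicate 4.

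By the mean of log2 CPM in a group, 24 of the 35 genes were highest in purified sham libraries, 6 in purified injured, 4 in fish oil injured and 1 in fish oil sham. The lowest group was fish oil sham for 22 genes, purified injured for 6, fish oil injured for 4 and purified sham for 3. The 3 genes lowest in purified sham were Jun, Nr4a2 and Atf3. The same shares over all genes tested, and counts without the libraries of other regions, are not given here. Of those libraries, fish oil sham replicate 2 was the lowest of the 12 in 12 of the 35 genes. Purified injured replicate 3 was the highest of the 12 in 6.

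Fos, the partner that makes AP-1 a strong activator, stood at 77.9, 45.3 and 11.1 CPM in fish oil injured and at 33.8, 53.7 and 31.2 CPM in fish oil sham libraries (replicates 2, 3 and 4, an order kept below). In purified injured libraries Fos was at 32.85, 56.0 and 42.5 CPM, and in purified sham libraries at 110.6, 85.9 and 63.4 CPM. All purified sham values lay above all purified injured and all fish oil sham values, and fish oil injured replicate 4 was the lowest of the 12. Fosb, a close relative of Fos, was at 33.6, 22.7 and 5.14 CPM in fish oil injured, at 12.5, 15.4 and 14.3 CPM in fish oil sham, at 17.1, 48.2 and 21.5 CPM in purified injured and at 30.75, 30.1 and 20.9 CPM in purified sham libraries. Its highest value was thus in purified injured replicate 3, a library of other regions. Junb, a Jun family member, was at 4.29, 5.51 and 2.66 CPM in fish oil injured, at 2.97, 7.44 and 3.62 CPM in fish oil sham, at 4.10, 2.69 and 2.36 CPM in purified injured and at 5.09, 5.53 and 6.20 CPM in purified sham libraries. Only purified injured and purified sham libraries were apart for Junb among the 4 pairs of groups compared. Junb, like 7 other genes of the 35, overlaps another gene model, and its reads cannot be told from those of the neighbour where the strand setting is not known.

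Jun itself, the other partner in AP-1, had its lowest mean where Fos had its highest. Jun was at 13.1, 24.9 and 11.1 CPM in fish oil injured and at 19.3, 11.6 and 21.4 CPM in fish oil sham libraries. It was at 14.6, 15.2 and 23.05 CPM in purified injured and at 11.3, 12 and 10.1 CPM in purified sham libraries, where all 3 values lay below the purified injured ones. Atf3 was at 4.51, 1.91 and 0.539 CPM in fish oil injured and at 1.81, 0.648 and 1.29 CPM in fish oil sham libraries. In purified injured libraries Atf3 was at 0.433, 21.6 and 2.00 CPM, and in purified sham libraries at 2.15, 0.681 and 0.873 CPM. The single high value of Atf3 belongs to purified injured replicate 3. That library also held the highest values of Fosl2 at 213 CPM, Inhba at 49.05 CPM and Scg2 at 595.6 CPM.

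The 4 EGR genes, zinc finger factors induced through SRF and MAP kinase, each had their highest mean in purified sham and their lowest in fish oil sham libraries. Egr1 was at 490.2, 245.5 and 198 CPM in fish oil injured and at 172, 390.1 and 194 CPM in fish oil sham libraries. In purified injured libraries Egr1 was at 231, 316.5 and 244 CPM, against 557, 560.4 and 451 CPM in purified sham libraries. Only fish oil injured replicate 2 came within the purified sham range. Egr3 was at 238, 132 and 141.5 CPM in fish oil injured, at 81.0, 134 and 110.3 CPM in fish oil sham, at 109, 169 and 128 CPM in purified injured and at 235, 211 and 171 CPM in purified sham libraries. Egr4 was scarce, at 3.27, 2.81 and 1.66 CPM in fish oil injured, at 0.609, 2.03 and 1.08 CPM in fish oil sham, at 1.62, 2.51 and 2.62 CPM in purified injured and at 3.17, 2.70 and 2.62 CPM in purified sham libraries. Egr2 ran from 2.85 CPM in fish oil injured replicate 4 to 42.2 CPM in purified sham replicate 2.

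The NR4A genes encode orphan nuclear receptors that need no ligand. Nr4a1 had its highest mean in purified sham libraries, at 99.1 ± 50.9 CPM in fish oil injured, 93.9 ± 57.4 in fish oil sham, 110 ± 43.5 in purified injured and 176 ± 46.3 in purified sham libraries (SD, n = 3 each). Nr4a2 and Nr4a3 did not share that pattern. Nr4a2 had its lowest mean in purified sham libraries, at 58.5 ± 19.0 CPM, and Nr4a3 ranged from 21.0 to 143 CPM within the fish oil injured group alone. For all 3 genes the groups overlapped in each of the 4 pairs compared.

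Npas4, a bHLH-PAS factor induced by calcium entry, was at 41.0, 43.0 and 8.68 CPM in fish oil injured and at 18.4, 44.4 and 18.2 CPM in fish oil sham libraries. It was at 25.2, 51.5 and 28.55 CPM in purified injured and at 64.2, 87.0 and 48.3 CPM in purified sham libraries. Purified sham values all lay above those of fish oil sham, while purified injured replicate 3 lay within the purified sham range. Klf4 averaged 4.82 ± 2.66 CPM in fish oil injured, 2.64 ± 0.443 in fish oil sham, 4.77 ± 1.30 in purified injured and 5.23 ± 1.77 in purified sham libraries (SD, n = 3 each). Klf10, a target of TGF-beta signalling, varied little, from 35.9 to 63.0 CPM over all 12 libraries.

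Arc, which moves into spines and drives removal of AMPA receptors, was at 293, 168 and 119 CPM in fish oil injured and at 67.5, 251 and 123 CPM in fish oil sham libraries. In purified injured libraries Arc was at 147, 162 and 111 CPM, against 371, 279 and 270.0 CPM in purified sham libraries. The purified sham values lay above every other library but fish oil injured replicate 2. Homer1, whose short activity-induced form Homer1a uncouples postsynaptic scaffolds, was at 549.5, 249 and 343 CPM in fish oil injured and at 185, 214.5 and 223 CPM in fish oil sham libraries. Homer1 was at 221, 289 and 255 CPM in purified injured and at 317.5, 397.5 and 363 CPM in purified sham libraries. Injured libraries thus lay all above sham libraries on fish oil and all below them on the purified diet. Reads were counted per gene, so Homer1a and the long forms are not separated. Vgf, a secreted neuropeptide precursor, was at 25.0, 28.3 and 28.85 CPM in fish oil injured, at 21.5, 24.75 and 23.5 CPM in fish oil sham, at 26.7, 13.0 and 14.5 CPM in purified injured and at 21.1, 25.4 and 27.5 CPM in purified sham libraries. Nptx2 stayed within 16.8 and 31.9 CPM in all 12 libraries.

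The Scg2 gene was at 411, 171 and 226 CPM in fish oil injured, at 487, 207 and 161 CPM in fish oil sham, at 186, 595.6 and 206 CPM in purified injured and at 223, 280.5 and 288 CPM in purified sham libraries. Its high values in fish oil sham and purified injured mice belonged to the libraries of other regions, replicates 2 and 3 of those groups. Inhba, the activin A subunit gene, ran from 5.28 to 49.05 CPM, both within the purified injured group.

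Dusp6, the cytoplasmic phosphatase that inactivates ERK, was at 74.9, 62.1 and 61.7 CPM in fish oil injured and at 35.7, 85.8 and 48.2 CPM in fish oil sham libraries. Dusp6 was at 61.9, 57.6 and 49.8 CPM in purified injured and at 109, 108 and 93.0 CPM in purified sham libraries. All 3 purified sham values lay above the 9 others. Dusp4, a nuclear phosphatase of the same family, was at 15.3, 11.9 and 6.62 CPM in fish oil injured, at 7.28, 8.83 and 10.98 CPM in fish oil sham, at 5.52, 7.19 and 10.8 CPM in purified injured and at 10.05, 11.3 and 11.9 CPM in purified sham libraries. Its groups overlapped in every pair. Dusp1, Dusp5, Pim1, which encodes a kinase, and Trib1, which encodes a pseudokinase, had their lowest mean log2 CPM in fish oil sham libraries, as Dusp6 did. Sik1, a kinase gene that CREB induces and that restrains CREB coactivators, had its highest mean in purified injured libraries.

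Ier5, a nuclear early response gene, was at 64.7, 26.4 and 58.2 CPM in fish oil injured and at 20.5, 53.9 and 35.7 CPM in fish oil sham libraries. Ier5 was at 41.6, 29.75 and 26.3 CPM in purified injured libraries, against 65.4, 64.2 and 65.8 CPM in purified sham libraries, which nearly coincided. Btg2, an antiproliferative gene, was at 40.25, 48.0 and 11.4 CPM in fish oil injured, at 34.6, 66.0 and 26.6 CPM in fish oil sham, at 33.1, 49.4 and 40.35 CPM in purified injured and at 83.45, 92.9 and 61.7 CPM in purified sham libraries. Fish oil sham replicate 3 lay within the purified sham range of Btg2. Ier2 ran from 0.720 to 2.92 CPM over the 12 libraries, Gadd45b from 3.56 to 7.14 CPM and Gadd45g from 0.693 to 2.72 CPM.

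**Figure D3:**
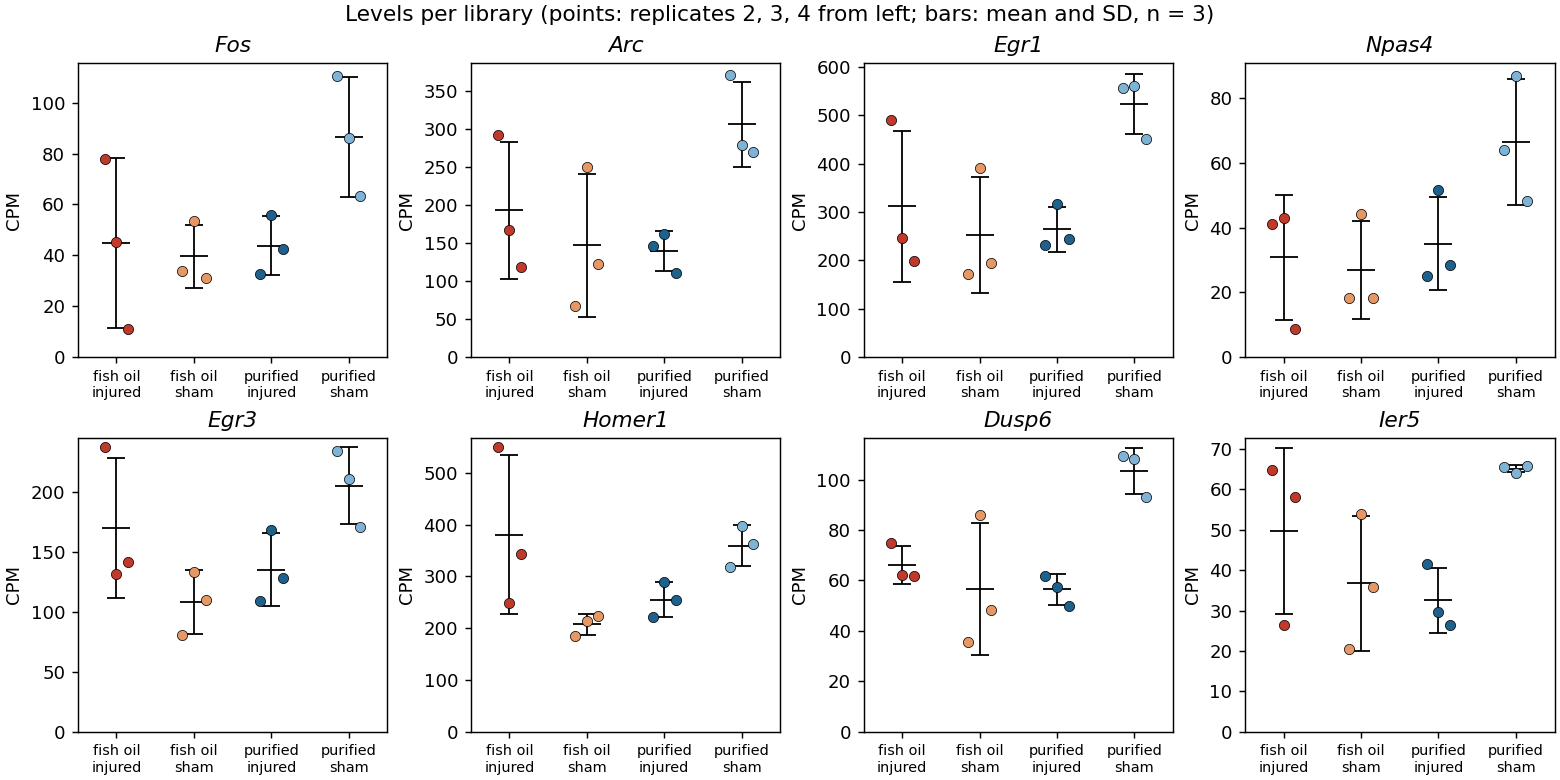
CPM of 8 genes in each library of the 4 groups (points: replicates 2, 3 and 4 from left; bars: mean and SD, n = 3). Purified sham points lie above purified injured points for all but Npas4, and the fish oil injured group has the widest bars for Fos, Egr1 and Homer1.

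Injury on the purified diet went with lower values of most of the genes. Of the 35, 24 had a log2 fold change (injured over sham) below 0 and 11 above it, with a median of -0.43, while the median of all 19252 genes was 0.0030. All 4 EGR genes and all 5 growth arrest and other early genes stood below 0, with medians of -0.75 and -0.87, against 2 of 7 AP-1 and related genes. Dusp6 had a log2 fold change of -0.87 ± 0.25 (SE), Egr1 of -0.99 ± 0.36, Ier5 of -1.0 ± 0.37, Arc of -1.13 ± 0.43 and Fos of -0.99 ± 0.53. By edgeR's quasi-likelihood test 0 of 35 passed an adjusted p of 0.05 (lowest adjusted p = 0.763), as did 0 of 19252 genes (0%), of which 1251 had an unadjusted p under 0.05. DESeq2 called 14 genes and limma-voom 0, with 0 of the 35 in either.

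At an unadjusted p under 0.05, 6 of the 35 stood lower in purified injured libraries (Arc, Dusp6, Egr1, Egr3, Ier5 and Junb), or 17.1%, beside 2.57% of all genes. In the other direction 1 did, Atf3 at 2.69 ± 1.19, beside 3.93% of all genes. Without purified injured replicate 3, where Atf3 was high, 0 stood higher, and likewise without fish oil sham replicate 2 or 4 or purified sham replicate 3 or 4. In those fits 2.05% to 3.98% of all genes stood higher. For 11 of the 35 every purified injured value lay below every purified sham value, beside 6.68% of all genes: Arc, Btg2, Dusp1, Dusp6, Egr1, Egr3, Fos, Homer1, Ier2, Ier5 and Junb. Jun alone of the 35 lay wholly above, beside 4.92% of all genes. The count of 6 became 2 without purified injured replicate 4, beside 2.62% of all genes. It became 4 without purified injured replicate 2 (4.69% of all genes), purified sham replicate 2 (1.56%) or purified sham replicate 3 (1.6%). It became 10 without fish oil injured replicate 4 (2.59%) and 9 without fish oil sham replicate 3 (2.56%), which are not among the libraries compared. With the 2 purified groups fitted alone it was 12 (2.97%). Without the libraries of other regions it was 6 again, beside 2.21% of all genes, 31 of 35 stood below 0, and the median was -0.58. Groups then lay apart, lower, for 19 of 35, beside 13.1% of all genes. Several marker lists stood lower or higher here too. The median was -0.86 for oligodendrocyte markers (6 of 6 below 0), -0.93 for striatal (7 of 7) and -2.02 for choroid plexus (5 of 5). It was -0.37 for endothelial (5 of 5), -0.42 for cortical excitatory (5 of 6) and 5.26 for olfactory bulb markers (3 of 3 above 0). Striatal sums were 138.5, 171 and 695 CPM in purified sham and 111 to 249 CPM in purified injured libraries. Choroid plexus sums were 24.5, 465 and 27.6 CPM in purified sham and 14.6 to 35.1 CPM in purified injured libraries. A single purified sham library thus stood out in each. Olfactory bulb markers were high only in purified injured replicate 3. Oligodendrocyte markers summed to 1854 to 2716 CPM in purified injured and 1740 to 5254 CPM in purified sham libraries. The part of these markers in the result was not tested.

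Injury on the fish oil diet went with somewhat higher values. Of the 35 genes 31 stood above 0 and 4 below, with a median of 0.31 beside -0.0051 for all genes. Homer1 had a log2 fold change of 0.87 ± 0.23 (SE), Egr4 of 1.05 ± 0.41 and Egr3 of 0.65 ± 0.26, whereas Fos stood at 0.18 ± 0.53, Arc at 0.39 ± 0.43 and Egr1 at 0.31 ± 0.36. No member passed by edgeR (0 of 35, lowest adjusted p = 0.999), nor did any of the 19252 genes (0%), of which 670 had an unadjusted p under 0.05. DESeq2 called 37 genes and limma-voom 1, in both cases 0 of the 35. Homer1, Egr3 and Egr4, 3 of the 35 or 8.57%, stood higher at an unadjusted p under 0.05, beside 1.58% of all genes, and 0 stood lower, beside 1.90%. For Homer1, Nptx2 and Vgf the groups lay apart, injured above sham, beside 4.97% of all genes.

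Single libraries weighed on this comparison. Without fish oil injured replicate 2 the median was -0.015 and 18 of the 35 stood below 0. Homer1 then stood at 0.51 in place of 0.87, and Egr3 at 0.33 in place of 0.65. Without fish oil sham replicate 3 Egr4 stood at 1.59 in place of 1.05 and the median was 0.60. Without fish oil injured replicate 4 the median was 0.54, and without fish oil sham replicate 2 it was 0.17. The count of 3 became 1 without fish oil injured replicate 2 (1.62% of all genes) or fish oil sham replicate 2 (1.05%). It became 8 without fish oil injured replicate 4 (1.26%) and 7 without fish oil sham replicate 3 (1.64%). It was 1 with the fish oil groups fitted alone (1.41%). Without the libraries of other regions the median was 0.18 and the count 2, beside 1.37% of all genes, and Homer1 stood at 0.79 ± 0.27. The groups lay apart, higher, for 3 of 35 then too, beside 8.61% of all genes. Choroid plexus markers, whose sums are given above, were higher in all 3 fish oil injured than in all 3 fish oil sham libraries, and their part in these values was not tested.

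Among sham mice the genes stood lower on fish oil than on the purified diet. The log2 fold change (fish oil over purified) was below 0 for 30 of the 35 and above 0 for 5, with a median of -0.71 beside 0.0059 for all genes. The EGR genes had a median of -1.12, with Egr2 at -1.64 ± 0.70 (SE), Egr4 at -1.18 ± 0.41, Egr1 at -1.05 ± 0.36 and Egr3 at -0.92 ± 0.26. Npas4 stood at -1.30 ± 0.56, Fos at -1.13 ± 0.53, Arc at -1.06 ± 0.43, Dusp6 at -0.87 ± 0.25 and Homer1 at -0.79 ± 0.23. All 7 phosphatase and kinase genes were below 0. Jun, Nr4a2, Gadd45g, Scg2 and Atf3 were the 5 above 0, Jun at 0.64 ± 0.31. By edgeR 0 of the 35 passed (lowest adjusted p = 0.934) and 0 of 19252 genes (0%), of which 710 had an unadjusted p under 0.05. DESeq2 called 17 genes and limma-voom 0, none of them among the 35.

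In this comparison 11 of the 35, or 31.4%, stood lower on fish oil at an unadjusted p under 0.05, beside 1.95% of all genes, and 0 stood higher, beside 1.74%. They were the 4 EGR genes, Arc, Homer1, Nptx2, Npas4, Klf4, Dusp6 and Ier5. For 15 of the 35, or 42.9%, every fish oil sham value lay below every purified sham value, beside 7.45% of all genes, Fos, Fosb, Fosl2, Dusp5 and Pim1 among them. The count of 11 became 4 without fish oil sham replicate 2 (0.847% of all genes) and 5 without fish oil sham replicate 4 (1.63%). It became 6 without purified sham replicate 2 (1.26%), 7 without purified sham replicate 3 (1.21%) and 18 without fish oil sham replicate 3 (3.31%). It was 7 with no filter on low counts (1.31%). Without the libraries of other regions it was 4, beside 1.06% of all genes, with 33 of 35 below 0 and a median of -0.52, and Egr1 stood at -0.83 ± 0.41. The groups then lay apart, lower, for 16 of 35, beside 10.3% of all genes. With all 12 libraries, cortical excitatory markers had a median of -0.37 (6 of 6 below 0). Their sums were 690, 1314 and 1143 CPM in fish oil sham and 1103 to 1264 CPM in purified sham libraries. Only replicate 2, a library of other regions, thus lay below the purified sham range. Endothelial markers had a median of -0.77 (5 of 5 below 0). Striatal markers stood higher at 1.08 (7 of 7 above 0), with a sum of 1625 CPM in the same replicate 2. The part of these markers was not tested. Purified sham libraries serve both this comparison and that of injury on the purified diet, so the 2 are not independent.

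With all 12 libraries the genes had no common direction between the diets among injured mice. Of the 35 genes 20 stood above 0 and 15 below, and the median log2 fold change (fish oil over purified) was 0.049 beside 0.0058 for all genes. Vgf stood at 0.60 ± 0.23 (SE), Homer1 at 0.58 ± 0.23, Dusp4 at 0.52 ± 0.31, Fos at 0.033 ± 0.53 and Arc at 0.47 ± 0.43. By edgeR 0 of the 35 passed (lowest adjusted p = 0.413) and 0 of 19252 genes (0%), with 2063 at an unadjusted p under 0.05. DESeq2 called 186 genes and limma-voom 0, with 0 of the 35. Homer1 and Vgf, 2 of the 35, stood higher at an unadjusted p under 0.05, beside 3.89% of all genes, and 0 stood lower, beside 6.83%. Ier2 alone lay wholly higher on fish oil, at 2.47, 1.97 and 1.98 CPM against 1.77, 1.92 and 0.720 CPM, beside 5.60% of all genes. The median was 0.35 without purified injured replicate 3, 0.34 without fish oil injured replicate 4 and -0.26 without fish oil injured replicate 2, so that the direction rests on single libraries. The count of 2 became 1 without fish oil injured replicate 2 (4.05% of all genes) or any 1 of the purified injured libraries (2.27% to 6.06%). It was 0 with the injured groups fitted alone (1.54%). Without the libraries of other regions the median was 0.35 and 6 of the 35 stood below 0. At an unadjusted p under 0.05, 1 stood higher in that fit, beside 2.19% of all genes. The groups then lay apart, higher, for 3 of 35, beside 9.25% of all genes. Without fish oil injured replicate 2 Homer1 stood at 0.22 and Dusp4 at 0.24. Dusp4 stood at 0.81 without purified injured replicate 4 and Vgf at 0.99 without purified injured replicate 2, where the median was -0.048.

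**Figure D4:**
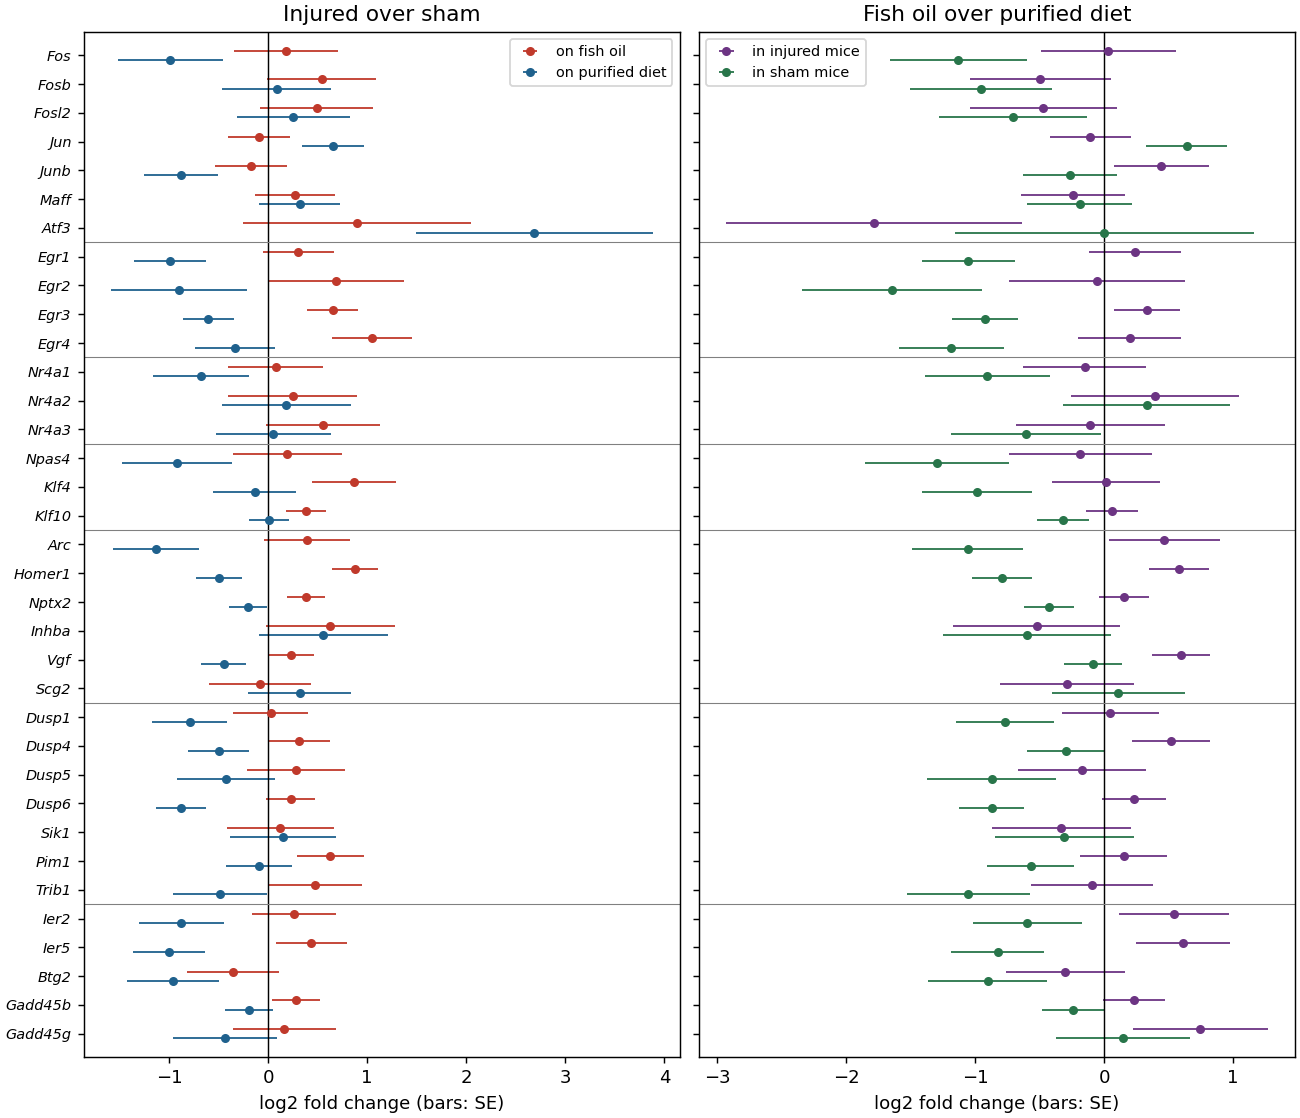
Log2 fold change of the 35 genes with SE bars, for injured over sham on each diet (left) and for fish oil over purified diet in injured and in sham mice (right). On the left most purified-diet points lie below 0 and most fish oil points above it; on the right the sham points lie below 0 for 30 genes and the injured points scatter about 0.

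Averaged over the diets, injury gave no common direction: 17 of the 35 stood below 0 and 18 above, with a median of 0.024 beside 0.0012 for all genes. The smallest p-values belonged to Atf3 at 1.79 ± 0.82 (SE), Junb at -0.53 ± 0.26 and Btg2 at -0.65 ± 0.33, and Atf3 stood at 0.44 without purified injured replicate 3. Without fish oil sham replicate 3 Junb stood at -0.27 and Btg2 at -0.42. The median ran from -0.12 without fish oil injured replicate 2 to 0.13 without fish oil injured replicate 4. By edgeR 0 of the 35 passed (lowest adjusted p = 0.991) and 0 of 19252 genes (0%), with 694 at an unadjusted p under 0.05. None of the 35 stood lower at an unadjusted p under 0.05, beside 1.72% of all genes, or higher, beside 1.89%. Without the libraries of other regions 3 stood lower (Dusp6, Dusp5 and Junb), beside 2.75% of all genes, and 0 higher, beside 2.27%. In that fit 21 of the 35 stood below 0. DESeq2 called 3 genes and limma-voom 2, with 0 of the 35.

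Averaged over injury states, 29 of the 35 stood below 0 on fish oil and 6 above, with a median of -0.32 beside 0.013 for all genes. Npas4 stood at -0.74 ± 0.39 (SE), Fosb at -0.72 ± 0.39 and Btg2 at -0.60 ± 0.33. Fosb stood at -0.43 without purified injured replicate 3 and Btg2 at -0.40 without fish oil injured replicate 4. By edgeR 0 of the 35 passed (lowest adjusted p = 0.597) and 0 of 19252 genes (0%), with 1704 at an unadjusted p under 0.05. None of the 35 stood lower at an unadjusted p under 0.05, beside 6.10% of all genes, or higher, beside 2.75%. DESeq2 called 99 genes and limma-voom 0, with 0 of the 35. Without the libraries of other regions the median was -0.070 and 24 of 35 stood below 0. In that fit 0 stood lower at an unadjusted p under 0.05, beside 3.18% of all genes. Without fish oil injured replicate 2, 8 stood lower, beside 7.57% of all genes, and without fish oil sham replicate 3, 9 did, beside 5.73%. Endothelial markers stood lower on fish oil, at sums of 71.0 to 86.6 CPM in fish oil injured, 73.3 to 91.8 CPM in fish oil sham, 98.0 to 137.5 CPM in purified injured and 128 to 174 CPM in purified sham libraries.

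The interaction sets the injury difference on fish oil against that on the purified diet. It was above 0 for 30 of the 35 and below 0 for 5, with a median of 0.71 beside -0.021 for all genes. Homer1 stood at 1.37 ± 0.33 (SE), Egr3 at 1.26 ± 0.36, Dusp6 at 1.10 ± 0.35, Egr1 at 1.29 ± 0.51, Arc at 1.53 ± 0.61, Egr4 at 1.38 ± 0.57 and Ier5 at 1.44 ± 0.51. These were the 7 of the 35 with an unadjusted p under 0.05, or 20%, beside 2.85% of all genes in that direction. By edgeR 0 of the 35 passed after adjustment (lowest adjusted p = 0.820) and 0 of 19252 genes (0%), with 1108 at an unadjusted p under 0.05. DESeq2 called 21 genes and limma-voom 0, with 0 of the 35. The count of 7 became 4 without fish oil injured replicate 2 (2.25% of all genes) or fish oil sham replicate 4 (2.01%). It became 13 without fish oil injured replicate 4 (1.42%) or fish oil sham replicate 3 (3.84%). Without the libraries of other regions it was 4, beside 1.52% of all genes, with 33 of 35 above 0 and a median of 0.85. Homer1 ranged from 1.01 to 1.60 with single libraries left out. Choroid plexus markers had a median of 7.14 (5 of 5 above 0) and olfactory bulb markers of -6.27 (3 of 3 below 0). Only purified injured replicate 3 was high in olfactory bulb markers. Cortical excitatory markers had a median of 0.66 (5 of 6 above 0) and oligodendrocyte markers of 0.56 (6 of 6 above 0). The part of these markers was not tested.

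Other genes that activity is known to induce stood beside the 35. Of 27 listed, 26 were in the table and 24 were tested. Their median log2 fold change was -0.32 for injury on the purified diet (22 of 24 below 0, 4 lower at an unadjusted p under 0.05, beside 2.57% of all genes) and 0.18 for injury on fish oil (18 above 0, 2 higher, beside 1.58% of all genes). It was -0.43 for diet in sham mice (22 below 0, 4 lower, beside 1.95% of all genes) and 0.18 for diet in injured mice (18 above 0, 1 higher, beside 3.89% of all genes), and 0 passed by edgeR after adjustment. Bdnf and Ptgs2 were picked for the smallest p of this list in a comparison and are not typical of it. Bdnf, the neurotrophin that CREB and Npas4 drive, was at 63.3, 41.2 and 36.6 CPM in fish oil injured and at 25.1, 34.4 and 33.3 CPM in fish oil sham libraries. Bdnf was at 30.2, 28.6 and 38.1 CPM in purified injured and at 49.2, 52.5 and 44.4 CPM in purified sham libraries. As with Homer1, its injured libraries lay above sham on fish oil and below sham on the purified diet, at log2 fold changes of 0.60 ± 0.20 (SE) and -0.59 ± 0.20. Ptgs2, the inducible cyclooxygenase of prostaglandin synthesis, was at 34.3, 23.2 and 18.9 CPM in fish oil injured and at 14.3, 24.8 and 10.03 CPM in fish oil sham libraries. Ptgs2 was at 20.2, 23.4 and 24.5 CPM in purified injured and at 36.6, 54.0 and 43.0 CPM in purified sham libraries, above all 9 others. Its diet difference in sham mice was -1.44 ± 0.31 (unadjusted p = 0.00067, adjusted p = 0.934 by edgeR).

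The genes of the signalling that induces them had medians near 0. All 25 listed, among them Creb1, Srf, the CRTC and MEF2 genes, the calcium-dependent kinases, ERK and RSK kinases and NMDA receptor subunits, were tested. Their median was 0.052 for injury on the purified diet, 0.049 for injury on fish oil, -0.056 for diet in sham mice and -0.027 for diet in injured mice. At an unadjusted p under 0.05, 2 of the 25 stood higher for injury on the purified diet, beside 3.93% of all genes, and 1 for injury on fish oil, beside 1.58%. None did in either direction for diet in sham mice, beside 1.95% of all genes lower and 1.74% higher. For diet in injured mice 3 stood lower, beside 6.83% of all genes, and 1 higher, beside 3.89%. Single genes ran from -0.62 for Cacna1c, a calcium channel gene, in the last comparison to 0.64 for Mapk3, an ERK gene, in the first. Creb1 was picked for the smallest p of this list for injury on fish oil. Creb1 was at 98.0, 92.55 and 100.6 CPM in fish oil injured and at 73.1, 79.3 and 83.2 CPM in fish oil sham libraries. Injured thus lay above sham, beside 4.97% of all genes, in the comparison by which Creb1 was picked. Creb1 was at 80.8, 104.2 and 88.4 CPM in purified injured and at 86.2, 90.6 and 82.8 CPM in purified sham libraries, which overlapped. Transcript levels of these genes do not measure the activity of the proteins. Cortical excitatory markers, 6 genes, had medians of -0.42, 0.25, -0.37 and 0.32 in the same 4 comparisons, the same signs as the 35 genes. The last sign of the 35 rests on a median of 0.049, which turned below 0 with some single libraries left out. Pan-neuronal markers, 5 genes, had medians of -0.16, 0.14, 0.099 and 0.24. Excitatory markers summed to 976 to 1400 CPM in fish oil injured, 690 to 1314 in fish oil sham, 822 to 1568 in purified injured and 1103 to 1264 CPM in purified sham libraries. The lowest sums, 690 CPM in fish oil sham replicate 2 and 822 CPM in purified injured replicate 3, belonged to the libraries of other regions. The marker medians include both libraries. The part of these markers in the differences of the early genes was not tested.

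**Figure D5:**
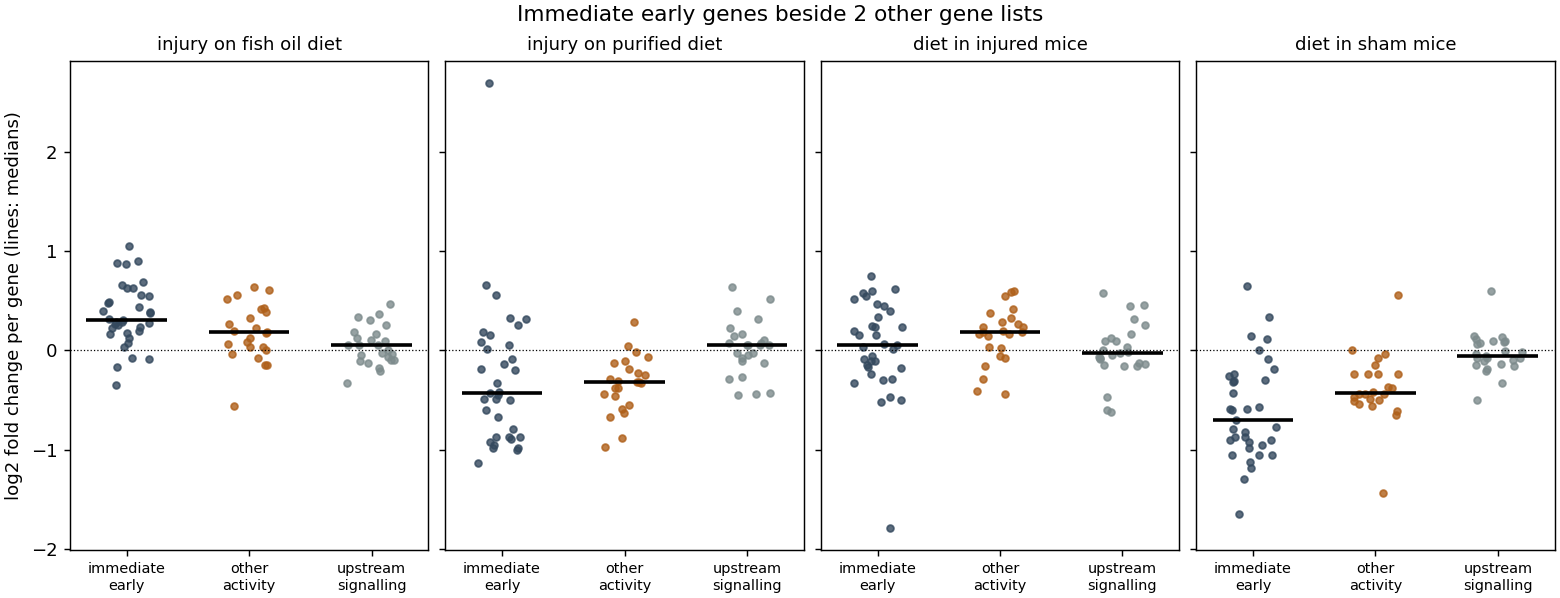
Log2 fold change per gene of the 35 immediate early genes, 24 other activity-regulated genes and 25 upstream signalling genes in 4 comparisons (lines: medians). The first 2 lists have medians below 0 for injury on the purified diet and diet in sham mice, -0.43 and -0.32, then -0.71 and -0.43, while the medians of the signalling genes lie between -0.056 and 0.052.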

How the data were processed

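RNA of cortical tissue from 12 libraries, 3 in each of 4 groups, was read as raw counts per gene, whole numbers that the authors deposited. The submitters' processing notes name STAR 2.5.2a, featureCounts 1.4.3-p1 and mm10. Per the labels' protocols, the library kit keeps strand and reads were paired. Which annotation was counted, whether strand was used and how multiply mapped reads were handled is not given in the sources used here. Overlapping genes may therefore share reads, and 8 of the 35 genes overlap another gene model. Values of 2 outnumbered values of 1 (20514 against 11222), so the deposited counts appear to hold both mates of a pair. Gene symbols and positions came from GENCODE M21 (53274 of 53379 identifiers matched). No pair of replicates of a group agreed within sampling noise, and all 12 libraries were kept apart.

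Genes were kept with filterByExpr (minimum count 10, 19252 genes). edgeR 4.0.16 was fitted to all 12 libraries with TMM factors and 4 group means (glmQLFit and glmQLFTest, robust, 8 residual degrees of freedom). P-values were adjusted by Benjamini-Hochberg over the 19252 genes, and 0.05 was the threshold. Standard errors were derived from the F statistic. The biological coefficient of variation was 0.289. Log2 CPM used a prior count of 2. Groups lie apart where all 3 values of one are above all 3 of the other. Promoter sequences came from RefSeq on GRCm38.p6.

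The 35 genes, the other lists and the tests were chosen with earlier results of these data known. Values per library are printed for Fos, Arc, Egr1 and Npas4 and for the 3 genes with the smallest p in each of the 7 comparisons, for the extremes of level and spread as named, and for Jun and Ier2, which were added after their values were seen. Of the other lists they are printed for Bdnf, Ptgs2 and Creb1, each with the smallest p of its list in a comparison. Alternatives were RLE factors, DESeq2 1.42.0, limma-voom (limma 3.58.1), other filters, fits on the compared groups, the replicate number as a block, limma-voom with libraries whose names share a first number treated as correlated (estimated correlation -0.256, and what that number marks is not given in the sources used here), and leaving out each library or both libraries of other regions. In each group the library names of replicates 3 and 4 share a first number and that of replicate 2 differs. The 3 libraries of a group may therefore not be independent, and the main fit treats them as independent. The procedure was also run on simulated data, and the outcome is not given here. The simulated libraries were independent and had no added transcripts of other regions, so that run does not bear on these features.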

Additional observations from a re-analysis of the deposited data

Results flagged for a closer look

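Homer1 met a rule for effects that differ between groups, here injured and sham libraries lying apart in opposite directions on the fish oil and purified diets. Its injured libraries lay all above sham on fish oil, at 549.5, 249 and 343 CPM in injured against 185, 214.5 and 223 CPM in sham libraries. They lay all below sham on the purified diet, at 221, 289 and 255 CPM in injured against 317.5, 397.5 and 363 CPM in sham libraries. The interaction was a log2 difference of 1.37 ± 0.33 (SE), with an unadjusted p of 0.00146 and an adjusted p of 0.820 by edgeR over all genes, so it did not pass. Its value ran from 1.01 without fish oil injured replicate 2 to 1.60 without fish oil injured replicate 3. The library values of Homer1 restate the pattern by which it was flagged and are no separate evidence for it. The share of all genes tested that show this pattern is not given here. Bdnf, which is not among the immediate early genes listed, showed the pattern too. It was picked for the smallest p of its list for injury on fish oil, so it is no separate evidence either.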

How the results depend on the processing

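None of the 35 genes passed an adjusted p of 0.05 in any of the 7 comparisons under any alternative run. The median of the 35 turned its sign for injury on fish oil without fish oil injured replicate 2 (-0.015). It also did so under several alternatives for diet in injured mice, down to -0.26 without that library, and for injury averaged over diets, down to -0.12 without the libraries of other regions. RLE factors in place of TMM moved no median by more than 0.02. Counts of called genes over the whole table did move, against 0 in the main test. DESeq2 called 14 genes for injury on the purified diet, 37 for injury on fish oil, 17 for diet in sham mice, 186 for diet in injured mice, 3 for injury averaged over diets, 99 for diet averaged over injury states and 21 for the interaction. For injury on fish oil, limma-voom called 1 gene, also with correlated libraries, and leaving out single libraries gave 0 to 7, the 7 without fish oil injured replicate 2. For diet in injured mice 1 gene was called without the libraries of other regions, and 0 to 83 with single libraries left out, 83 without purified injured replicate 4 and 14 without fish oil injured replicate 2. For injury averaged over diets limma-voom called 2, also with correlated libraries, and 1 was called with no filter on low counts. For diet averaged over injury states 2 were called with no filter and 2 by limma-voom with correlated libraries, and single libraries left out gave 0 to 6, the 6 without purified injured replicate 4. The cause was not tested. By limma-voom with correlated libraries 10 of the 35 stood lower at an unadjusted p under 0.05 for injury on the purified diet, beside 5.45% of all genes. For diet in sham mice 17 did, beside 3.65%. By limma-voom without the correlation 8 stood lower, beside 2.79%, and 14, beside 2.37%. Modelling the negative correlation of -0.256 thus went with higher shares of all genes too. By DESeq2 11 stood lower in the first of these comparisons, beside 2.95%, and 16 in the second, beside 2.41%.

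The labels give each group replicates 2, 3 and 4 but do not say what the number marks. Deviations of same-numbered libraries from their group means correlated at -0.371 to 0.278 over 18 pairs, of which 3 were over 0.1, and other pairs at -0.34 to 0.379, so the numbers were not taken to pair the libraries. With the number as a block 0 genes were called in each of the 7 comparisons, the medians were -0.47, 0.35, -0.72 and -0.0049 in the 4 pairwise comparisons, in the order above, and 0.74 for the interaction, and at an unadjusted p under 0.05 9 of the 35 stood lower for injury on the purified diet (1.97% of all genes), 14 lower for diet in sham mice (1.48%) and 9 higher for the interaction (2.04%).

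Each of the 35 genes had at least 22 counts in every library. The part of depth, of the number of libraries, of the spread within groups and of the transcripts of other regions in the number of calls was not tested.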
